A study of Mus musculus with 12 samples.

Results

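The 34 genes described here mark the oligodendrocyte lineage and were taken by symbol from a list: 11 of the precursor stage, 8 of the onset of differentiation and 15 of myelin. All 34 were found among the 37620 gene IDs of the count files. RNA was sequenced from neural stem cells of C57BL/6J mouse embryos of stage E14.5, kept dividing with FGF-2 and EGF, each at 20 ng/ml, with no other treatment. There were 4 groups of 3 libraries: E12-/- cells (E12KO) and their E12+/+ litter mates (E12wt), and E47-/- cells (E47KO) and their E47+/+ litter mates (E47wt). Nothing in the labels tells if replicates are separate embryos or cultures, so p-values measure only the spread between these libraries. That spread may be technical, apart from a difference of sex within E47wt that is described below. E12 and E47 are splice forms of Tcf3, and counts per whole gene cannot tell them apart.

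Oligodendrocytes arise from dividing precursors that carry the receptor Pdgfra and the proteoglycan Cspg4 and that depend on the factors Olig2, Sox10 and Nkx2-2. On leaving the cell cycle they pass through a short stage marked by Gpr17, Bcas1 and Enpp6, and then switch on the proteins and lipids of the myelin sheath under the control of Myrf. E12 and E47 are E proteins, basic helix-loop-helix factors that pair with tissue-specific partners such as Olig1 and Olig2 on the DNA motif called the E-box, and cultured neural stem cells keep the capacity to form neurons, astrocytes and oligodendrocytes.

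The libraries held 34515297 to 56835783 gene reads on the strand that the kit reads. A level of 3 reads, taken as the floor of detection, corresponded to between 0.0534 and 0.0828 CPM (counts scaled to a common library size), which covers counting error only. Whole-gene Tcf3 was at 92.1, 72.9 and 101 CPM in E12KO, against 77.1, 82.4 and 75.9 CPM in E12wt. It was at 117, 113 and 106 CPM in E47KO, against 84.2, 75.9 and 97.2 CPM in E47wt. Its log2 fold change was 0.18 ± 0.11 (SE) in E12KO and 0.39 ± 0.12 in E47KO (edgeR quasi-likelihood test, BH-adjusted p = 0.605 and 0.971), and such counts check no label, since the other splice form is counted with the missing one. No 2 libraries of a group agreed within sampling noise. E47KO replicate 2 stood far from all others (at 58.3 on the first principal component, on which the other 11 lay between −14.7 and 5.58), and E12wt replicate 3 stood apart on the second (29.6), so results are also given without them.

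Levels within each stage spanned a wide range in these stem cells, and some defining proteins of mature myelin were near absent. Per kb of exon, Olig1 had the highest mean level of the list, 309 CPM per kb over the 12 libraries, and Olig2 followed with 126 CPM per kb. Both are bHLH factors that specify the lineage. The myelin genes Cnp, a membrane-bound phosphodiesterase, Sirt2, a tubulin deacetylase, and Gjc3, a connexin of glia, came to 33.98, 21.2 and 13.0 CPM per kb. Sox8, a SoxE factor that acts beside Sox10, had 29.5 CPM per kb, below Cnp. The other precursor factors were far lower: Sox10 had 1.44 CPM per kb, Nkx2-2 1.07, Zfp536 0.343 and Nkx6-2 0.279. At the low end of the 28 genes that passed the low-count filter, Mbp, which compacts the myelin membrane, had 0.193 CPM per kb, Aspa, which breaks down N-acetylaspartate, had 0.141 CPM per kb, and Ermn, a cytoskeletal protein of myelin, had 0.0841 CPM per kb.

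**Figure D1:**
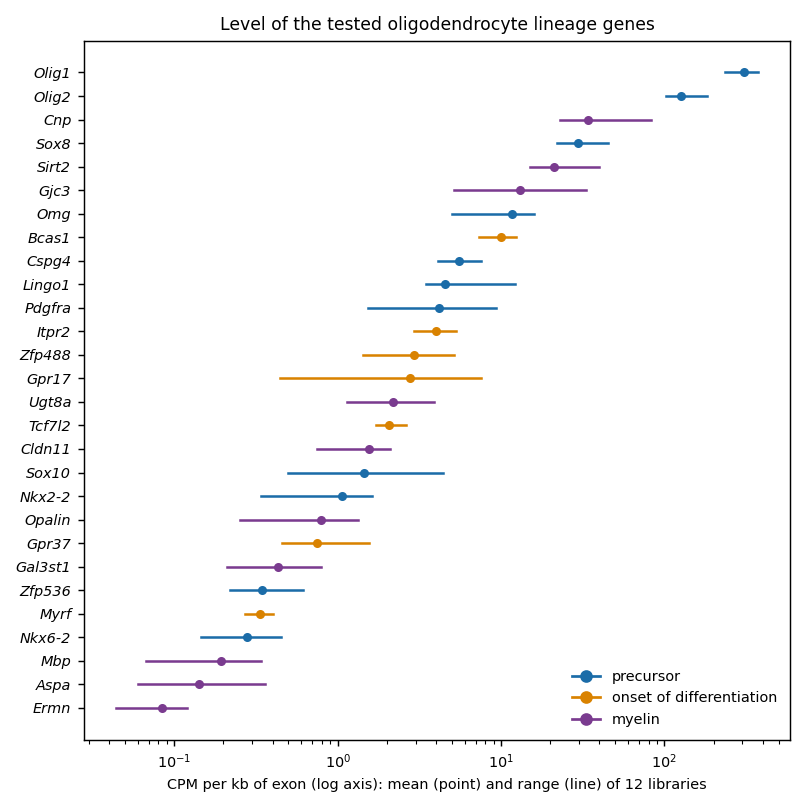
Level of the 28 oligodendrocyte lineage genes that passed the low-count filter, in CPM per kb of exon on a log axis; points are means and lines the range over 12 libraries. Precursor genes (blue) range from Olig1 at 309 to Nkx6-2 at 0.279 CPM per kb, and myelin genes (purple) from Cnp at 33.98 to Ermn at 0.0841 CPM per kb.

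The other 6 genes were under the filter in every comparison. Mog, a surface protein of the outermost myelin layer, had 2 reads in all 12 libraries together, both in E47wt replicate 3. Mag, an adhesion molecule of the innermost layer, had 7 reads, and Mobp, a compact myelin protein, had 16. Mal, a proteolipid of myelin rafts, had 30 reads in all, Enpp6, a choline phosphodiesterase of newly formed oligodendrocytes, had 44, and Fa2h, which hydroxylates the fatty acids of myelin lipids, had 46. In single libraries these 6 genes reached at most 0.248 CPM (Enpp6 in E47KO replicate 2). Presence of the mature cell type, for which Mag, Mog and Mobp are defining markers, was therefore not detectable at this depth.

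Genes of the list differed widely in how steady they were across libraries. Gpr17, a receptor that marks precursors committed to differentiate, ranged 16.9-fold between its lowest and highest library. Sox10, the factor that directs most oligodendrocyte genes, ranged 8.84-fold, and Pdgfra, the receptor for the growth factor PDGF-A, 6.10-fold. By contrast Myrf, the membrane-bound factor that starts myelin transcription, ranged 1.49-fold, Tcf7l2, a Wnt effector needed for differentiation, 1.52-fold, and Olig1 1.60-fold. A low level alone does not order these values, since Myrf averaged 2.87 CPM and Sox10 4.40 CPM. In bulk samples, fewer cells of a type and less RNA per cell cannot be told apart.

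**Figure D2:**
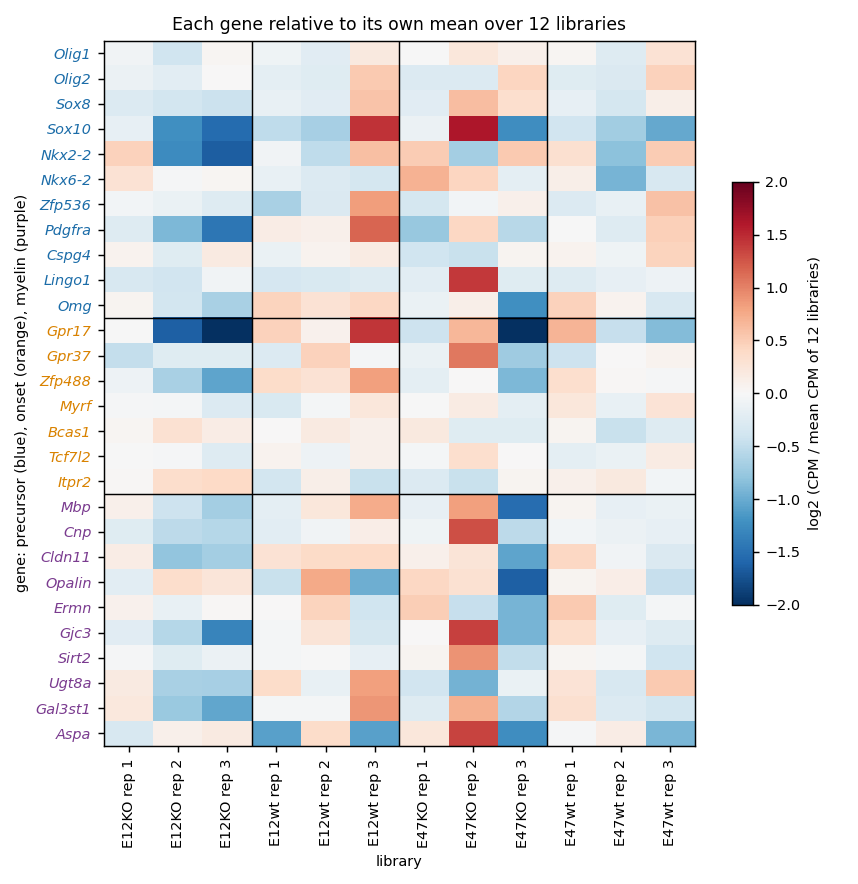
Each of the 28 tested genes in each of 12 libraries, as log2 of its CPM over its mean CPM of the 12; the colour scale ends at −2 and 2, and lines part the groups and the stages. E12wt replicate 3 is dark red for Sox10, Pdgfra and Gpr17, and E47KO replicate 2 for Sox10, Lingo1, Cnp, Gjc3 and Aspa.

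The first comparison asks how cells without E12 differ from wild-type litter mates. No gene of the list passed the test: of 14755 genes tested with edgeR's quasi-likelihood test, 4 were called lower at a BH-adjusted p under 0.05 (0.0271%) and 2 higher (0.0136%). Among the 28 tested lineage genes, 22 had a log2 fold change below 0, against 48.6% of all genes, with a median of −0.32 against 0.0045 over all genes. The 3 E12KO libraries lay below all 3 E12wt libraries for 7 of the 28, namely Sox8, Pdgfra, Omg, Gpr17, Zfp488, Cnp and Cldn11, against 7.17% of all genes, and above them for 1, Nkx6-2, against 6.47%. An unadjusted p under 0.05 was reached by 9 genes on the lower side, those 7 with Gjc3 and Ugt8a, against 4.67% of all genes, and by 1 on the higher side, Itpr2, against 4.29%. The genes were measured in the same 6 libraries, so these counts are not independent of each other.

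Among the precursor factors, Olig1 was at 635, 508 and 685 CPM in E12KO, against 629, 569 and 767 CPM in E12wt. Olig2 was at 292, 275 and 321 CPM in E12KO, against 278, 268 and 459 CPM in E12wt. The groups overlapped for both genes, and the highest value was that of E12wt replicate 3. Their log2 fold changes were −0.10 ± 0.13 and −0.17 ± 0.19 (edgeR quasi-likelihood test, BH-adjusted p = 0.820 and 0.775).

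Sox8 was at 76.1, 70.9 and 68.3 CPM in E12KO, against 82.8, 78.8 and 136 CPM in E12wt. Every E12KO library was below every E12wt library, by a narrow margin except for replicate 3 of E12wt, and the log2 fold change was −0.46 ± 0.19 (edgeR quasi-likelihood test, BH-adjusted p = 0.534), and −0.17 without that library. Sox10 was at 3.91, 1.88 and 1.52 CPM in E12KO, against 3.11, 2.77 and 12.006 CPM in E12wt. E12KO replicate 1 exceeded 2 of the 3 wild-type libraries, and the log2 fold change of −1.29 ± 0.59 (BH-adjusted p = 0.557 in the same edgeR test) rested on E12wt replicate 3, without which it was −0.27. Nkx2-2, a homeodomain factor of precursors, had a log2 fold change of −0.59 ± 0.52, with 4.21 CPM in E12KO replicate 1, close to the highest E12wt value of 4.67 CPM, and was −0.24 without E12wt replicate 3, which holds that value. Nkx6-2, a homeodomain factor that persists in myelinating cells, was the gene above without overlap, at 0.648, 0.525 and 0.546 CPM in E12KO, against 0.481, 0.441 and 0.416 CPM in E12wt. These values are low and its log2 fold change of 0.36 ± 0.26 had a BH-adjusted p of 0.656 in edgeR's quasi-likelihood test. Zfp536, a zinc finger protein that restrains neuronal differentiation, was at −0.25 ± 0.35.

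At the cell surface, Pdgfra showed the widest gap of the precursor genes. It was at 34.8, 22.3 and 15.3 CPM in E12KO, against 46.3, 44.8 and 93.3 CPM in E12wt. All E12KO libraries were below all E12wt libraries, and means were 24.1 ± 9.85 CPM in E12KO and 61.5 ± 27.6 CPM in E12wt (SD, n = 3 each). The log2 fold change was −1.34 ± 0.35 (edgeR quasi-likelihood test, BH-adjusted p = 0.507), and −0.92 without E12wt replicate 3. Omg, a glycoprotein anchored to the membranes of oligodendrocytes and neurons, was at 27.2, 20.2 and 16.7 CPM in E12KO, against 35.3, 31.7 and 34.5 CPM in E12wt. The wild-type libraries of Omg were close together and none of the E12KO libraries reached them. Its log2 fold change was −0.66 ± 0.16 (edgeR quasi-likelihood test, BH-adjusted p = 0.507), and −0.65 without E12wt replicate 3. Cspg4 (−0.01 ± 0.11) and Lingo1, a receptor component that restrains differentiation (0.05 ± 0.10), had overlapping groups with log2 fold changes near 0.

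Of the genes of differentiation onset, Gpr17 and Zfp488 were the ones without overlap. Gpr17 was at 14.4, 4.70 and 2.30 CPM in E12KO, against 20.0, 15.3 and 39.0 CPM in E12wt. E12KO replicate 1 came close to the lowest wild-type library, and the other two E12KO libraries were far below. The log2 fold change was −1.79 ± 0.59 (edgeR quasi-likelihood test, BH-adjusted p = 0.523), and −1.31 without E12wt replicate 3. Zfp488, a zinc finger repressor that acts with Olig2, was at 11.8, 8.05 and 6.11 CPM in E12KO, against 16.3, 15.5 and 22.3 CPM in E12wt. All E12KO libraries were lower, and the log2 fold change was −1.05 ± 0.24 (edgeR quasi-likelihood test, BH-adjusted p = 0.468), or −0.88 without E12wt replicate 3.

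The call of Zfp488 and Omg depended on the test. DESeq2 on the same counts called both lower (BH-adjusted p = 0.00136 for Zfp488 and 0.0116 for Omg), among 57 genes called lower (0.33% of those tested) and 38 higher (0.22%). Over the settings and tools tried, the adjusted p ranged from these values to 1 for both genes. In the authors' deposited table the log2 fold changes were −1.06 for Zfp488 and −0.67 for Omg, with adjusted p-values of 0.00521 and 0.0219. That table lists 12089 genes, 62 of them called, and holds 24 of the 34 genes. Zfp488 and Omg were the only ones of these 24 with an adjusted p under 0.05 there.

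The remaining onset genes had overlapping groups. Itpr2, a calcium release channel of the endoplasmic reticulum, was at 60.8, 76.2 and 78.9 CPM in E12KO, against 46.3, 64.8 and 43.9 CPM in E12wt. Only E12wt replicate 2 lay within the E12KO range, and the log2 fold change was 0.48 ± 0.16 (edgeR quasi-likelihood test, BH-adjusted p = 0.523). Gpr37, a receptor of maturing oligodendrocytes, was at −0.39 ± 0.20. Myrf (−0.08 ± 0.19), Tcf7l2 (−0.11 ± 0.11) and Bcas1, a marker of cells that begin to myelinate (0.08 ± 0.09), were nearest to 0.

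E proteins bind the E-box CANNTG, so promoter sequences are shown for Pdgfra, Sox8, Zfp488 and Nkx6-2. These precursor and onset genes had no overlap between E12KO and E12wt, and their RefSeq promoters were among those searched. Omg and Gpr17 had no overlap either, but their promoters were not searched. Each is the 250 bases before the start of transcription in GRCm38.p6, 5′ to 3′ on the strand of the gene, with CANNTG in capitals. The count files are on build mm9, so the coordinates are not those of the counts. They lie at chr5:75152001-75152250 (plus strand) for Pdgfra (ENSMUSG00000029231), chr17:25570687-25570936 (minus strand) for Sox8 (ENSMUSG00000024176), chr14:33978765-33979014 (minus strand) for Zfp488 (ENSMUSG00000044519) and chr7:139582798-139583047 (minus strand) for Nkx6-2 (ENSMUSG00000041309), the one of the 4 that was higher in E12KO.
Pdgfra: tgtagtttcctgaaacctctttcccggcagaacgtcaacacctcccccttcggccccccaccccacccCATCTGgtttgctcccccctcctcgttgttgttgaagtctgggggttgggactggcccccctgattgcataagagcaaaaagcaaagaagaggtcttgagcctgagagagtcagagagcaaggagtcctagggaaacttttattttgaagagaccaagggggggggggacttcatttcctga
Sox8: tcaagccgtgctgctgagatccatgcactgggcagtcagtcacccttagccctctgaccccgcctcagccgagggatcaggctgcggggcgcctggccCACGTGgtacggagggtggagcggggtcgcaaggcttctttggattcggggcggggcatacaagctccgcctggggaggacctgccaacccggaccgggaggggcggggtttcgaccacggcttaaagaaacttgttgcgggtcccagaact
Zfp488: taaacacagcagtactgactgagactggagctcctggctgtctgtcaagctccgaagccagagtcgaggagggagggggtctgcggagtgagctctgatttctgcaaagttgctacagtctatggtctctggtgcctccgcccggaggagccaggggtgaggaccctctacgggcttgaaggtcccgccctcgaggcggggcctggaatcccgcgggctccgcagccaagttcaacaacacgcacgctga
Nkx6-2: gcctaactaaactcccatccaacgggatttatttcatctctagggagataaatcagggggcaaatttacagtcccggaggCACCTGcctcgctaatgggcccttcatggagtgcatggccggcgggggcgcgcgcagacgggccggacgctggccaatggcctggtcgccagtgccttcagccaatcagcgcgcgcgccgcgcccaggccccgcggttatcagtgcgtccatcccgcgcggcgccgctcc
Pdgfra, Sox8 and Nkx6-2 hold 1 match each, whose first base lies 182, 152 and 170 bases before the start, and Zfp488 holds none. Promoters of 26 of the 34 genes were searched, some genes having several, 32 promoters in all. The other 8 genes, Gpr17 and Mbp among them, were not searched, so the counts do not cover them. CANNTG was in 14 of these 32, against 66.2% of 32851 mouse promoters of the same length. The forms CAGCTG and CAGGTG, which CANNTG includes, were in 2 and 5 of the 32, against 13.0% and 17.2% of all promoters, and the match of Nkx6-2 is of this last form. CANNTG and CAGCTG read the same on both strands, and CAGGTG was sought on both. These are matches of letters in this window and say nothing of binding.

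Myelin genes of the list lay mostly on the lower side in E12KO, with 8 of 10 tested below 0, against 48.6% of all genes. Their median log2 fold change was −0.49, and Sirt2 and Ermn were among those below 0 but close to it. The further myelin genes described below did not share this shift, as their median was near 0. Cnp was at 105, 86.4 and 83.4 CPM in E12KO, against 107, 118 and 136 CPM in E12wt. The highest E12KO library nearly met the lowest wild-type library, and the log2 fold change was −0.39 ± 0.11 (edgeR quasi-likelihood test, BH-adjusted p = 0.507). Cldn11, a tight junction protein of myelin, was at 3.26, 1.70 and 1.83 CPM in E12KO, against 3.59, 3.82 and 3.84 CPM in E12wt. E12KO replicate 1 was again close to the wild type, and the log2 fold change was −0.72 ± 0.25 (edgeR quasi-likelihood test, BH-adjusted p = 0.523).

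Gjc3 was at 48.5, 38.1 and 22.6 CPM in E12KO, against 55.3, 67.9 and 44.3 CPM in E12wt. E12KO replicate 1 overlapped E12wt replicate 3, and the log2 fold change was −0.61 ± 0.26 (edgeR quasi-likelihood test, BH-adjusted p = 0.545). Of the lipid enzymes, Ugt8a, which makes galactosylceramide, was at −0.71 ± 0.28 and Gal3st1, which sulfates it, at −0.75 ± 0.40, both with overlapping groups. Without E12wt replicate 3, Ugt8a was at −0.46 and Gal3st1 at −0.38. Mbp was at −0.60 ± 0.30, or −0.32 without that library, on levels of 1.33 ± 0.37 CPM in E12KO and 2.02 ± 0.66 CPM in E12wt (SD, n = 3 each). Sirt2 (−0.06 ± 0.07), Ermn (−0.06 ± 0.33), Opalin, a glycoprotein of the myelin loops (0.20 ± 0.40), and Aspa (0.45 ± 0.42) were the others, and all overlapped.

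**Figure D3:**
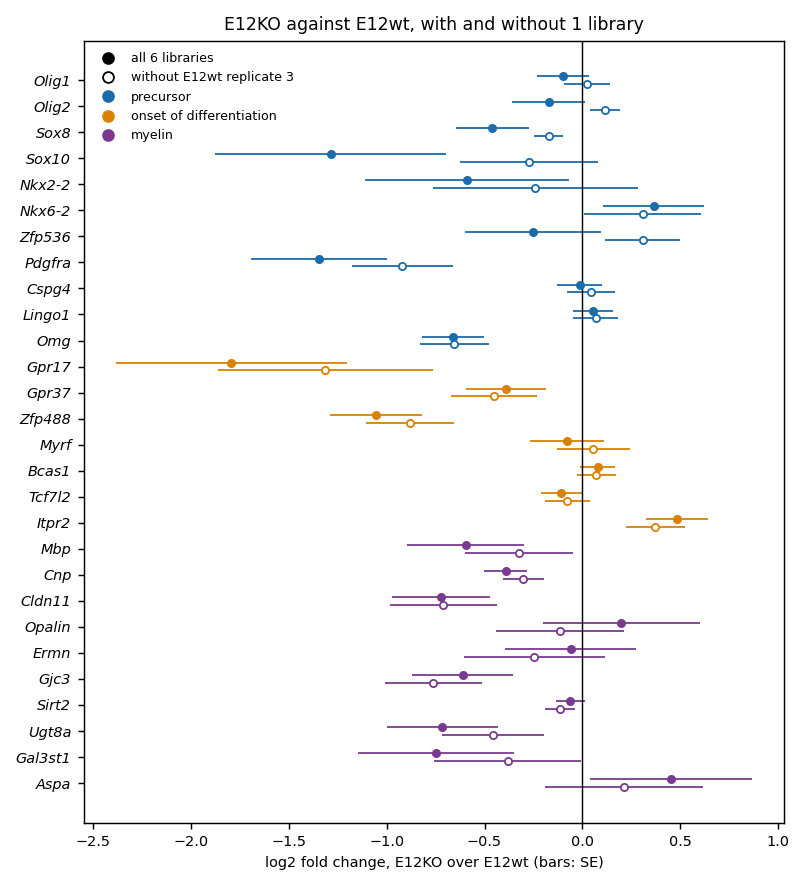
Log2 fold change of E12KO over E12wt (bars are SE) for the 28 tested genes, from all 6 libraries (filled) and without E12wt replicate 3 (open). Below 0 lie 22 filled and 18 open points, and the precursor genes Olig1, Olig2, Zfp536 and Cspg4 pass to the other side of 0.

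E12wt replicate 3 was set against the other two E12wt libraries. It had 4.09 times their mean for Sox10 (12.01 against 2.94 CPM), 2.44 times for Zfp536, 2.21 times for Gpr17 and 2.05 times for Pdgfra. These 4 of 28 genes were over 2 times the mean of the other two libraries, against 1.18% of all genes. Of the precursor genes 10 of 11 were above that mean, 3 of them by little (Omg 1.03, Lingo1 1.04 and Cspg4 1.14 times), and of the myelin genes 5 of 10, against 49% of all genes, with Opalin at 0.42 and Aspa at 0.535 times. It was the highest of its group for 9 of 11 precursor genes, against 38.7% of all genes, and E47wt replicate 3 was likewise the highest of its group for 8 of 11, against 40.7%. It was the highest of the 12 libraries for 8 of the 28 genes, against 11.9% of all genes. The neuron marker Dcx was at 58.7 CPM there, against 26.4 and 22.8 CPM in the other E12wt libraries and 13.1 to 23.8 CPM in E12KO. Of the 7 neuron markers, Tubb3, Syt1 and Stmn2 were also the highest of E12wt there, but Map2 and Snap25 were the lowest. The sum of the 7 was 1158 CPM there, against 1226 and 1244 CPM in the other E12wt libraries. The summed level of 7 astrocyte markers, most of it Slc1a3 and Sparcl1, was the lowest of the 12 libraries there. It was at 1506 CPM, against 1536 to 2072 CPM in the others. Taken singly, only Slc1a3 of the 7 was the lowest of the 12 there. The part of other cell types in these results was not tested.

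Leaving E12wt replicate 3 out moved the median of the precursor genes past 0 and not that of the myelin genes. Precursor genes then had 5 of 11 log2 fold changes below 0, with a median of 0.03 against −0.25 with all 6 libraries. Olig1 turned to 0.03, Olig2 to 0.12, Zfp536 to 0.31 and Cspg4 to 0.05. Onset genes had 4 of 7 below 0 with a median of −0.08, and myelin genes 9 of 10 with a median of −0.31. Over all 28 genes 18 were below 0, against 50% of all genes, and 8 had E12KO below E12wt without overlap, against 10.5% of all genes. None of the 28 was called, while 10 genes in all were.

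Markers of other cells were looked at beside these values. The summed level of 7 mesenchyme markers was 1.79 to 3.45 CPM in E12KO, against 8.19 to 11.6 CPM in E12wt, and Col1a1, Col1a2 and Bgn, genes of the fibroblast matrix, were called lower in E12KO (log2 fold changes of −1.83, −5.28 and −3.45, edgeR quasi-likelihood test, BH-adjusted p = 0.0105, 0.00433 and 0.00433). Of the other mesenchyme markers, Lum, Dcn and Twist1 overlapped between the groups. Twist1 was at 0.523, 0.900 and 1.81 CPM in E12KO, against 0.372, 1.03 and 0.301 CPM in E12wt. In the E47 line the mesenchyme sum was 2.67 to 3.48 CPM in E47KO, against 16.15, 2.37 and 2.21 CPM in E47wt. Pdgfra is also a mesenchyme gene and Cspg4 a pericyte gene, and the part of these cells in their values was not tested. The 5 pericyte markers summed to at most 0.8485 CPM in every library. Stem cell markers, led by Fabp7 and Vim, summed to 6375 to 6707 CPM in E12KO, against 6113 to 6816 CPM in E12wt, and neuron markers, nearly all of it Map2, to 1120 to 1309 CPM in E12KO, against 1158 to 1244 CPM in E12wt. Microglia and endothelium markers, led by P2ry12 and Tek, summed to at most 1.29 and 2.05 CPM in any library. Schwann cell markers, led by Egr2 and Pmp22, summed to 82.7 to 103.5 CPM in E12KO, against 79.0 to 89.2 CPM in E12wt.

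The second comparison sets E47KO against E47wt. Again no lineage gene passed the test: of 14965 genes, edgeR's quasi-likelihood test called 1 lower and 1 higher (0.00668% each). The 28 genes were split, 12 below 0 against 51% of all genes, with a median log2 fold change of 0.06 against −0.0050 over all genes. For none of the 28 did the 3 E47KO libraries stand on one side of the 3 E47wt libraries (3.88% of all genes lower, 4.02% higher), and none reached an unadjusted p under 0.05 in edgeR's quasi-likelihood test (1.06% lower, 1.13% higher). DESeq2 called none of them either.

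E47KO replicate 2 stood apart for many of these genes. Cnp was at 116, 302 and 86.0 CPM in E47KO, against 120, 113 and 111 CPM in E47wt. Gjc3 was at 56.8, 145 and 29.6 CPM in E47KO, against 72.6, 50.5 and 47.5 CPM in E47wt. For both, replicate 2 of E47KO was far above any other library while replicate 3 was below every E47wt library. Sirt2 (110, 199.6 and 75.9 CPM in E47KO, against 109.9, 104 and 81.0 CPM in E47wt) and Lingo1 (18.5, 57.1 and 18.1 CPM in E47KO, against 17.9, 19.1 and 19.8 CPM in E47wt) had the same outlying library. Their log2 fold changes were 0.55 ± 0.43 for Cnp, 0.44 ± 0.52 for Gjc3, 0.39 ± 0.33 for Sirt2 and 0.72 ± 0.44 for Lingo1 (edgeR quasi-likelihood test, BH-adjusted p = 0.971 for each).

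Some regulators and receptors of the lineage were high in the same library, and others were not. Sox10 was at 4.06, 13.4 and 1.85 CPM in E47KO, against 3.37, 2.71 and 2.17 CPM in E47wt. Gpr37 was at 4.15, 9.44 and 2.77 CPM in E47KO, against 3.42, 4.58 and 4.77 CPM in E47wt. In both cases replicate 3 of E47KO was the lowest of the 6 libraries and replicate 2 the highest. Against the mean of the other two E47KO libraries, replicate 2 had 0.435 times the level of Nkx2-2, 0.76 times that of Olig2 and 0.822 times that of Cspg4. By the same measure it was over 2 times as high for 11 of 28 genes, among them 6 of 10 myelin genes, 3 of 11 precursor genes and 2 of 7 onset genes, where 6.57% of all genes were. It was the highest of the 12 libraries for 10 of the 28, against 29% of all genes, and the lowest for 3, against 30.1%. The library also had the lowest depth, 34515297 gene reads, and its sum of 26 regulators of the lineage was the highest, 5589 CPM against 4241 to 4700 CPM in the others, with Hes5, a target of Notch signalling, at 961.9 CPM there and 290.6 to 496 CPM in the others. Of the 7 astrocyte markers, Aqp4 was at 23.9 CPM in it, against 1.66 to 4.87 CPM in the other 11 libraries, S100b at 8.996 CPM, against 1.26 to 4.30 CPM, and Aldh1l1 at 203.8 CPM, against 16.3 to 148.8 CPM. The sum of the 7 markers, most of it Slc1a3 and Sparcl1, was 1996 CPM, within the range of the others, 1506 to 2072 CPM. The part of astrocytes in these values was not tested.

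**Figure D4:**
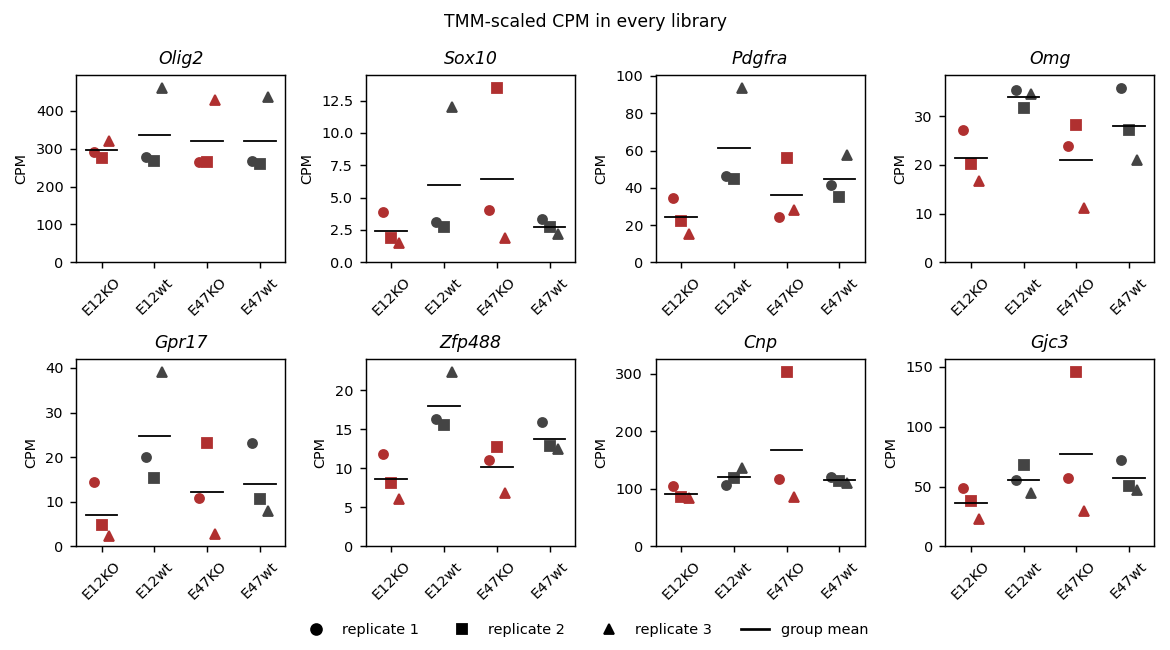
TMM-scaled CPM of 8 genes in each library (circle, square and triangle for replicates 1, 2 and 3; bars are group means; knockout red, wild type grey). E12KO lies below E12wt without overlap for Pdgfra, Omg, Gpr17, Zfp488 and Cnp, and E47KO replicate 2 is far above the rest for Cnp (302 CPM) and Gjc3 (145 CPM).

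Without E47KO replicate 2 the picture of the E47 line moved. Of the 28 genes 20 had a log2 fold change below 0, against 51.3% of all genes, with a median of −0.21. All 10 tested myelin genes were below 0, between −0.63 (Mbp) and −0.08 (Sirt2), while precursor genes had 5 of 11 below 0 and onset genes 5 of 7. E47KO was below E47wt without overlap for 3 genes, against 8.56% of all genes, and none was called. Pdgfra was then at −0.76, against −0.31 ± 0.34 with all 6 libraries, Omg at −0.68, against −0.41 ± 0.35, Zfp488 at −0.63, against −0.44 ± 0.25, and Gpr17 at −1.05, against −0.19 ± 0.72.

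Pdgfra, by library, was at 24.6, 55.8 and 28.3 CPM in E47KO, against 41.6, 35.0 and 57.7 CPM in E47wt. Gpr17 was at 10.8, 23.1 and 2.67 CPM in E47KO, against 23.2, 10.5 and 7.98 CPM in E47wt. Replicate 2 of E47KO came close to the highest wild-type library for both, while the other E47KO libraries were below all wild-type libraries for Pdgfra. Zfp488 was at 11.005, 12.7 and 6.78 CPM in E47KO, against 15.9, 12.9 and 12.5 CPM in E47wt. Omg was at 23.8, 28.1 and 11.2 CPM in E47KO, against 35.7, 27.2 and 20.9 CPM in E47wt. Replicate 2 of E47KO lay just above the lowest wild-type library for Zfp488, and replicates 1 and 2 lay within the wild-type range for Omg.

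**Figure D5:**
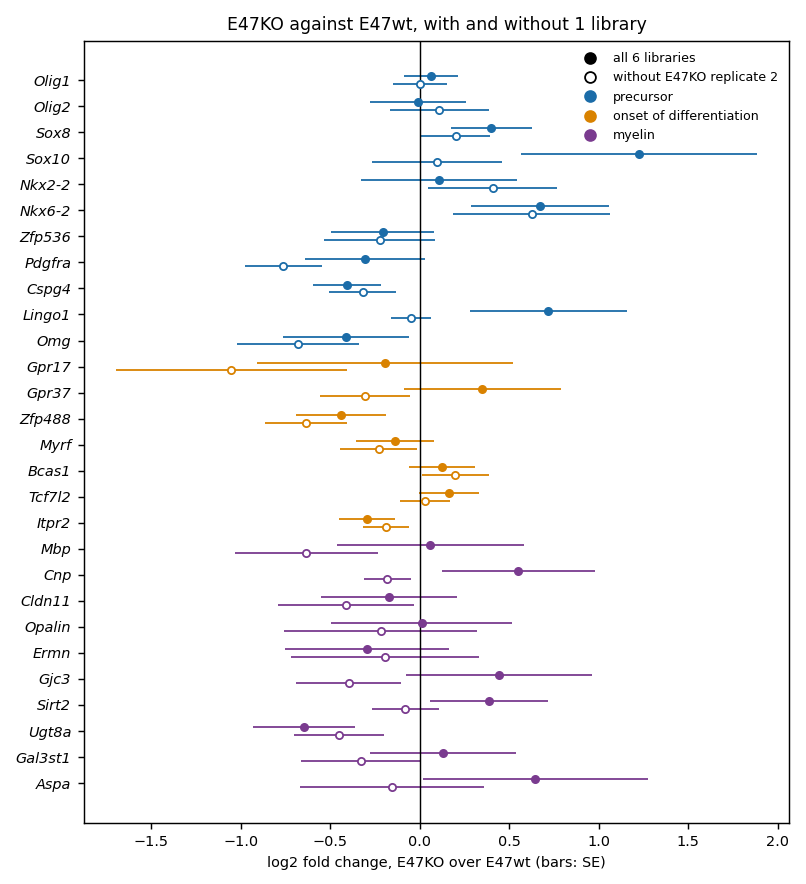
Log2 fold change of E47KO over E47wt (bars are SE) for the 28 tested genes, from all 6 libraries (filled) and without E47KO replicate 2 (open). Of the filled points 12 lie below 0, and of the open points 20, with all 10 myelin genes below 0.

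The remaining genes of the E47 comparison had overlapping groups and BH-adjusted p-values of 0.971 or more in edgeR's quasi-likelihood test. Of the precursor factors, Olig1 was at 0.06 ± 0.15, Olig2 at −0.01 ± 0.27, Sox8 at 0.40 ± 0.23, Sox10 at 1.23 ± 0.66, Nkx2-2 at 0.11 ± 0.44, Nkx6-2 at 0.67 ± 0.39 and Zfp536 at −0.21 ± 0.29 on the log2 scale. Cspg4 was at −0.41 ± 0.19, with 2 of 3 E47KO libraries below the E47wt range. The onset genes Gpr37, Myrf, Bcas1, Tcf7l2 and Itpr2 had log2 fold changes of 0.35, −0.14, 0.12, 0.16 and −0.29. Among myelin genes the lowest value was that of Ugt8a, −0.64 ± 0.29, and the highest that of Aspa, 0.65 ± 0.63, which E47KO replicate 2 set with 2.15 CPM, against 0.979 and 0.356 CPM in the other two E47KO libraries. Cldn11 was at −0.17, Opalin at 0.01, Ermn at −0.30, Mbp at 0.06 and Gal3st1 at 0.13.

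Same-numbered E47KO and E47wt libraries deviated together across genes, most of all replicate 3 (correlation 0.544), and were also read as pairs. The match of replicates 1 and 2 was less clear. E47KO replicate 2 correlated at 0.269 with E47wt replicate 2 and at 0.182 with E47wt replicate 1. E47KO was lower in all 3 pairs for 4 of the 28 genes, Ugt8a, Cspg4, Zfp488 and Ermn, against 12.7% of all genes, and higher in all 3 for 3, Nkx6-2, Nkx2-2 and Bcas1, against 12.9%. Ugt8a was at 0.635, 0.65 and 0.635 times the level of its E47wt pair, and Cspg4 at 0.719, 0.782 and 0.762 times. With the replicate number as a block, Ugt8a was at −0.64 ± 0.14 and Cspg4 at −0.41 ± 0.10 on the log2 scale (edgeR quasi-likelihood test, BH-adjusted p = 0.866 for both), so neither was called.

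Xist, the RNA of the inactive X chromosome, was at most 0.788 CPM in E47KO, and at 891, 0.839 and 1114 CPM in E47wt, while E12KO and E12wt were all between 1015 and 1509 CPM. Of the genes on the Y chromosome, Uty, Kdm5d, Ddx3y and Eif2s3y were at 28.0 to 80.4 CPM in the 3 E47KO libraries and E47wt replicate 2, and at most 0.170 CPM in the other 8 libraries. All E47KO libraries were thus male by these genes and 2 of 3 E47wt libraries female, so that sex and genotype are largely confounded in this comparison. The E47wt libraries therefore came from embryos of both sexes, and their spread includes any effect of sex. With Xist above 100 CPM as a covariate, 7 of 28 genes were below 0 in place of 12, and no lineage gene was called. That fit leaves E47wt replicate 2 as the lone wild-type library of the same sex as E47KO, assumed to vary like the others.

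Olig2 was highest in replicate 3 of each group, at 321 CPM in E12KO, 459 CPM in E12wt, 429 CPM in E47KO and 436 CPM in E47wt, against 259.7 to 292 CPM in the other 8 libraries. Those 4 libraries do not overlap with the other 8. This is 1 gene of the 28, and no share of all genes is given for such a split. Olig1 was not split this way, with 685 CPM in E12KO replicate 3 and 778 CPM in E47KO replicate 2. Sox10 was the lowest in replicate 3 of E12KO, E47KO and E47wt. Within E12KO, replicate 1 was the highest for 19 of the 28 genes, against 30% of all genes, and replicate 3 the lowest for 15. Group means were lowest in E12KO for 18 of the 28 genes. Shares of all genes are not given for the lowest library or the lowest group mean. E12wt replicate 3 and E47KO replicate 2, which stood apart, enter the other group means.

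Whether the effect of losing E12 differed from that of losing E47 was tested as an interaction over all 12 libraries. By Xist and the Y genes all libraries of the E12 line were female, while sex and genotype are largely confounded in the E47 line. The interaction therefore also carries sex, which was not fitted in it. None of 15277 genes was called by edgeR's quasi-likelihood test (184 lower and 279 higher at an unadjusted p under 0.05, and 1 called by DESeq2). The lineage genes with the lowest unadjusted p were Itpr2, with a difference of log2 fold changes of 0.77 ± 0.24, Sox8 with −0.87 ± 0.33 and Sox10 with −2.51 ± 1.01. Their BH-adjusted p in edgeR's quasi-likelihood test was 0.932 each. These 3 took an unadjusted p under 0.05 where 1.2% of all genes did on the lower side and 1.83% on the higher. The Sox10 difference rests on the 2 libraries that stood apart: it was −1.40 without E47KO replicate 2 and −0.37 without either. Tcf3 was at −0.21 ± 0.17.

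Between the wild types of the lines, none of 14892 genes was called by edgeR's quasi-likelihood test (305 lower and 263 higher in E12wt at an unadjusted p under 0.05, and 6 called by DESeq2). The lineage genes with the lowest unadjusted p were Zfp488, at 18.0 ± 3.68 CPM in E12wt and 13.8 ± 1.87 CPM in E47wt (SD, n = 3 each, log2 fold change 0.39 ± 0.16), and Bcas1, at 40.4 ± 2.37 CPM in E12wt and 32.8 ± 5.75 CPM in E47wt (0.30 ± 0.13). Sox10 followed with 1.12 ± 0.55, which was 0.10 without E12wt replicate 3. The BH-adjusted p in edgeR's quasi-likelihood test was 1 for all 3, and Tcf3 was at −0.13 ± 0.09. No lineage gene lay without overlap between the wild types, against 5.08% of all genes lower and 4.44% higher. Of these libraries E47wt replicate 2 alone was male by Xist and the Y genes, and sex was not fitted.

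Other genes of the pathway, which are not on the list of 34, were taken from 3 further lists. Of 13 other precursor genes, 10 were tested in E12KO and 9 were below 0, against 48.6% of all genes. Their median log2 fold change was −0.21, and none was called. The most abundant were Ptprz1, a receptor phosphatase (0.07 ± 0.10), and Smoc1, a matrix protein (−0.08 ± 0.07). In E47KO 6 of 10 were below 0, against 51% of all genes, with a median of −0.13. Of 17 other myelin genes, 6 of 11 tested were below 0 in E12KO (median −0.06) and 4 of 12 in E47KO (median 0.24), led by Qdpr and Plxnb3. Plxnb3, a plexin of oligodendrocytes, was at 151 CPM in E47KO replicate 2, against 50.9 to 75.5 CPM in the other 11 libraries. Of 26 regulators, 12 of 24 tested were below 0 in E12KO and 9 of 25 in E47KO, none called, with the E proteins Tcf12 and Tcf4 at 0.0034 and 0.07 in E12KO and −0.09 and −0.02 in E47KO.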

How the data were processed

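The 34 genes, the further lists and the alternatives were chosen with earlier results of these data known. Per the labels' protocols, 500 ng RNA per sample went into a stranded mRNA library kit, and the submitters' processing notes name STAR 2.5, build mm9, DESeq2 and DESeq. The authors deposited whole-number counts per gene and strand, from which opposite-strand counts, 97.1 to 97.2% of strand-assigned gene reads, were used, with both-strand counts as an alternative. The authors' deposited tables hold signal per library (equal to both-strand counts over a scaling factor, with relative differences of at most 5.11e-15), log2 fold changes with a score, and p-values.

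The main test was the quasi-likelihood F test of edgeR 4.0.16 in R 4.3.3 (filterByExpr by group, TMM, two-sided, BH adjustment over all genes tested, called under 0.05), and DESeq2 1.42.0 was an alternative. The test was first run on simulated counts with the same dispersion for all genes and no outlying library. That run therefore does not bear on the libraries that stood apart here. Log2 fold changes have a prior count of 0.125 and are given ± SE, the absolute fold change over the root of F. CPM values are scaled by TMM over all 12 libraries. Symbols, chromosomes and exon lengths came from GENCODE on GRCm38 by Ensembl ID, which named 32897 of 37620 IDs, and promoters from RefSeq. The rule named all 34 genes in the knockout comparisons, the 3 lowest unadjusted p in the others, and the called genes or the 2 most abundant of each further list. Overlapping exons of these genes lie on the opposite strand, apart from Mir7025 in Pdgfra and Gm38642 in Mobp.

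No label says that replicate numbers pair the samples. Deviations from the group means of same-numbered libraries correlated across genes at 0.225, 0.269 and 0.544 in E47KO and E47wt. In E12wt and E47wt they correlated at 0.192, 0.335 and 0.467. The main fits leave this pairing out, and their SE and p-values are unpaired. It was used only in the alternative fits with a replicate block and in the pair ratios of the E47 line. With the block, no call changed in these comparisons.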

Additional observations from a re-analysis of the deposited data

How the results depend on the processing

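No gene of the 34 was called in any comparison by edgeR under the alternatives tried, and DESeq2 called 2 (Zfp488 and Omg in E12KO). In E12KO the genes called in all, 6 in the fit reported, were 95 with DESeq2, 20 without the low-count filter, 2 with all 12 libraries in the fit and 3 against all 6 wild-type libraries, and 2 to 10 without 1 library. Set against all 6 wild-type libraries, an alternative chosen after seeing the data, Lingo1 turned to −0.0056. Both-strand counts turned Ermn to 0.047. Without 1 library, 7 to 13 lineage genes were lower and 1 to 4 higher without overlap. Of all genes, 9.65 to 17.3% were then lower and 8.76 to 16.7% higher without overlap. The log2 fold changes whose sign depended on 1 library ranged as follows in E12KO: Olig1 −0.19 to 0.025, Olig2 −0.31 to 0.12, Zfp536 −0.54 to 0.31, Cspg4 −0.11 to 0.093, Lingo1 −0.039 to 0.11, Myrf −0.22 to 0.056, Bcas1 −0.00052 to 0.14, Opalin −0.12 to 0.85 and Ermn −0.25 to 0.17. The other 19 of 28 kept their sign, 16 below 0.

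In E47KO the genes called, 2 in the fit reported, were 5 with DESeq2, 1 with the Xist covariate and 0 to 7 without 1 library. With DESeq2 and without the filter, Mobp entered the fit at 2 to 4 reads in E47KO and 0 to 1 in E47wt, too few for a comparison. Without 1 library, 10 to 20 lineage genes were below 0, 0 to 3 lower and 0 to 5 higher without overlap. Of all genes, 46.3 to 51.6% were then below 0, 5.95 to 15.5% lower and 6.18 to 14.4% higher without overlap. The ranges of those that changed sign were Olig1 −0.064 to 0.21, Olig2 −0.26 to 0.28, Nkx2-2 −0.20 to 0.41, Zfp536 −0.36 to 0.12, Lingo1 −0.049 to 1.01, Gpr17 −1.05 to 0.39, Gpr37 −0.30 to 0.69, Bcas1 −0.037 to 0.27, Mbp −0.63 to 0.49, Cnp −0.18 to 0.88, Cldn11 −0.41 to 0.16, Opalin −0.31 to 0.45, Ermn −0.80 to 0.021, Gjc3 −0.40 to 0.85, Sirt2 −0.080 to 0.67, Gal3st1 −0.33 to 0.40 and Aspa −0.16 to 1.11. The other 11 of 28 kept their sign. With the Xist covariate 7 were below 0, and Olig2 turned to 0.30, Zfp536 to 0.052, Pdgfra to 0.048, Gpr17 to 0.21, Myrf to 0.14, Opalin to −0.19 and Ermn to 0.048. With a replicate block Mbp turned to −0.17 and Opalin to −0.17. The cause of these shifts was not tested.

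The replicate block called 4 genes in E12KO and 2 in E47KO, none of them in the list of 34. Same-numbered E12KO and E12wt libraries correlated at −0.0738 to 0.13 and were not taken as paired, though a shared litter or day cannot be told from this. Not every library correlated best with its own number. In the difference of knockout effects DESeq2 called 1 gene and leaving out 1 library gave 0 to 1. Between the wild types DESeq2 called 6 and all 12 libraries in the fit 1. Depth limits Mag, Mog, Mobp, Mal, Enpp6 and Fa2h, which have too few reads for a comparison.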
